A study of Mus musculus with 6 samples.

Results

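The genes described here encode the microtubule and neurofilament skeleton of neurons and the motors that run on it. Members were chosen by a rule on gene symbols, with earlier results of these data known. It takes probe sets (groups of short array probes against a transcript) with a single symbol on the platform's annotation. The symbol names an alpha, beta or gamma tubulin, a gamma-tubulin complex protein, a stathmin or a neurofilament subunit. The rule also takes kinesin motors of the Kif series, dynein chains, Map1a, Map1b, Map2, Map4, Map6 and Mapt. The rule found 53 genes, covered by 73 probe sets, among 8251 genes with a single symbol. Where a gene had several probe sets, the one brightest on average stood for it. Visual cortex came from adult wild-type (C57Bl6) mice that lost an eye at age P100 (P, postnatal day) and were killed 4 days later, at age P104, and no transgene, mutant allele or drug is named for either group. The deprived group is cortex contralateral to the removed eye (3 arrays) and the non-deprived group is cortex ipsilateral to it (3 arrays). Both groups therefore come from operated animals, and a change shared by the 2 hemispheres cannot be seen in this comparison. The labels name 4 enucleated mice and the design speaks of pooled samples. Whether the 3 arrays of a group hold separate pools is not stated, so a p-value here reflects the scatter among these samples alone, and that scatter may be technical.

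Microtubules are hollow polymers of alpha and beta tubulin, nucleated at gamma-tubulin rings, and in neurons they stiffen axons and dendrites and serve as tracks for transport. Proteins such as tau (Mapt) and Map2 bind and stabilise the lattice, stathmins sequester free tubulin and promote disassembly, kinesins carry cargo mostly toward the plus end and cytoplasmic dynein toward the minus end. Neurofilaments are intermediate filaments that set axon calibre. In the developing brain many of these genes are tied to axon growth, while in the adult they are thought of mainly as structural genes of high abundance.

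Each value is a MAS5 signal, an arbitrary brightness unit for 1 probe set, so levels of different genes cannot be set against each other. Changes are given as log2(signal + 16) in deprived minus non-deprived arrays, with the standard error (SE) from limma; the added 16 makes changes of dim genes smaller than on the linear scale. The arrays were alike in general level, with medians of 202.8 to 219.7 signal units, and no pair held identical values. Between any pair of arrays, log2 values of the 7453 tested probe sets had correlations of 0.945 to 0.961. Of 9 neuronal markers listed, 6 had a probe set, and all 6 were bright enough to test. That cannot tell visual cortex from other brain tissue. Fos, an activity-induced transcription factor subunit, fell on deprivation, with a log2 change of -2.05 (SE 0.12, limma adjusted p = 0.00014). Its mean ± SD was 2946 ± 236 in the 3 non-deprived and 703 ± 87.7 in the 3 deprived arrays.

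No tested cytoskeletal gene passed the same test. Of the 53 members, 43 had a mean signal of at least 134.7 over all 6 arrays and were tested, and 0 of 43 passed an adjusted p of 0.05 in limma, with adjustment over all 7453 probe sets tested, of which 0.174% passed. At an unadjusted p under 0.05 there were 2 members, Tubb6 and Tubb3, which is 4.65% of those tested against 5.09% of all tested probe sets. Of the 43, 21 had a higher and 22 a lower mean log2 value in deprived cortex, and their median log2 change was -0.0039, against 0.0100 over all tested probe sets. The size of change without regard to sign was also alike, with a median of 0.11 for members and 0.13 for all tested probe sets. The groups' arrays did not overlap for 5 members, 3 higher (Tubb6, Kif2a, Kif2c) and 2 lower (Tubb3, Nefl) in deprived cortex. That is 11.6% of members, beside 10.1% of all tested probe sets (5.5% higher and 4.59% lower), so the share is close to the background. Of the 5, Kif2c reached the filter only through its deprived arrays, as its non-deprived mean was 119.

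Each member's interval gives the range of changes compatible with the scatter among these arrays. As said for the p-values, that scatter may be technical, so an interval does not bound the change among animals. The 95% interval of the log2 change lay within 1.5-fold in either direction for 29 of 43 members (67.4%, against 53.9% of all tested probe sets) and within 1.2-fold for 8 members (18.6%, against 4.6%). The 8 were Tuba1c, Tubb5, Stmn1, Stmn2, Stmn3, Dync1h1, Dync1i1 and Dynll2, all with a mean signal over 1000. The members' intervals are those of each gene's brightest probe set, and none is adjusted for the number of genes. They were narrower for bright genes: among probe sets with a mean signal of 1000 or more, 8 of 20 members and 17.8% of all tested ones lay within 1.2-fold. In bulk tissue, fewer cells of a type and less RNA per cell cannot be told apart, and this holds for every value below.

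**Figure D1:**
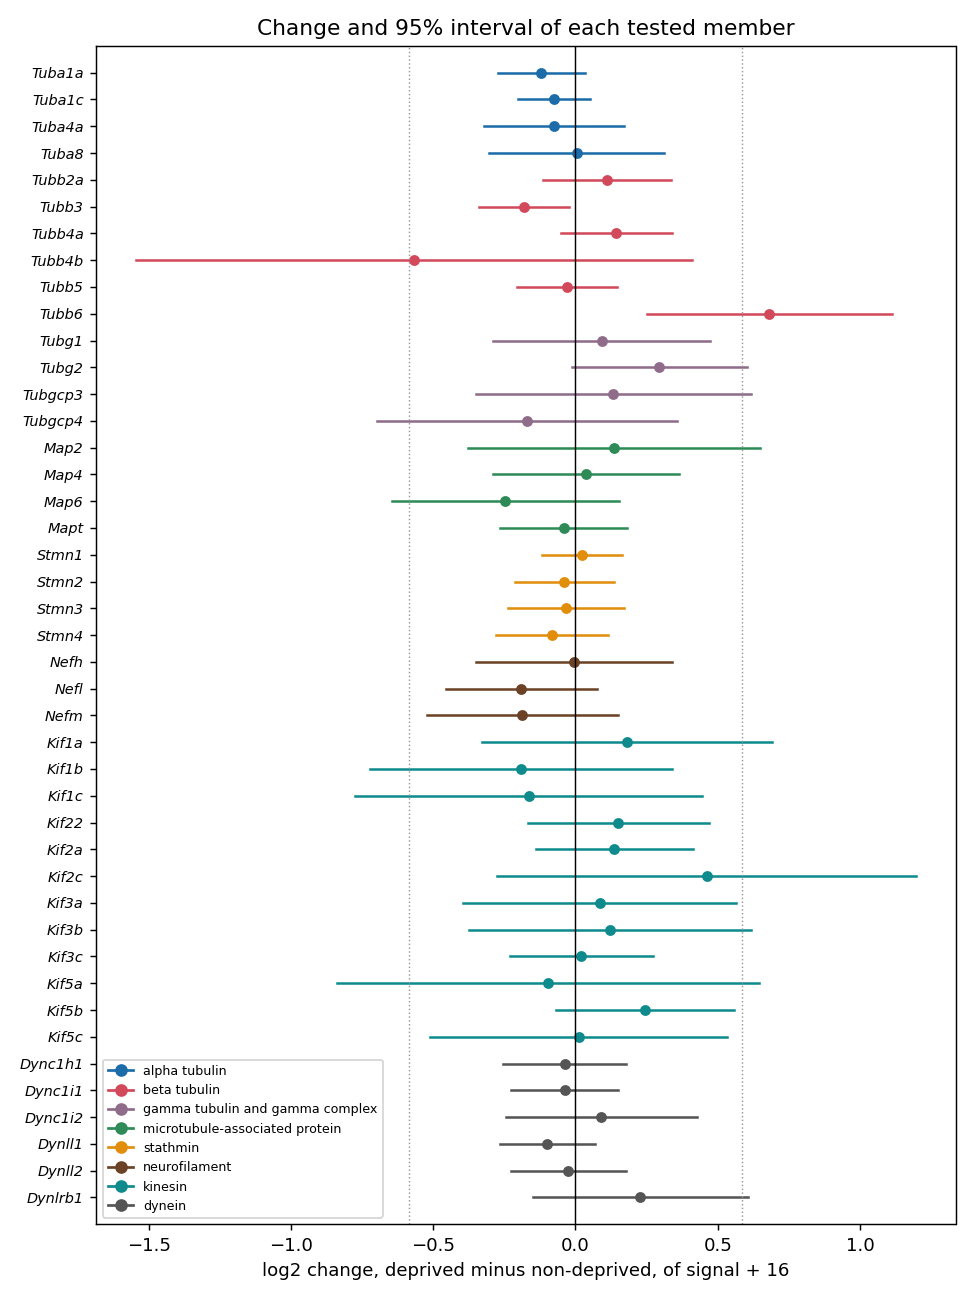
Log2 change (deprived minus non-deprived, x axis) of the 43 tested members, ordered and coloured by role; points are the limma estimates, lines the 95% intervals and dotted lines mark 1.5-fold either way. Tubb6 and Tubb3 are the members whose intervals lie to 1 side of 0, and 3 of 4 stathmin intervals lie within 1.2-fold.

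**Figure D2:**
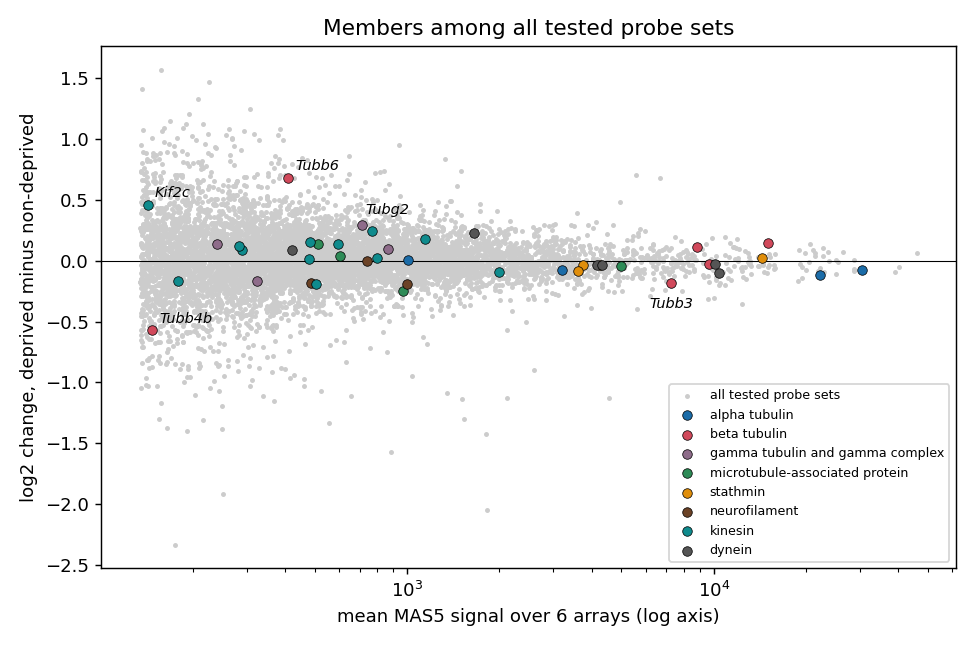
Log2 change (y axis) against mean MAS5 signal over the 6 arrays (x axis, log scale) for 7453 tested probe sets in grey and the 43 members in colour. Members sit inside the grey cloud at every brightness; Tubb6, at a log2 change of 0.68, is the farthest from 0.

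The beta tubulins, the subunits that carry the exchangeable nucleotide and differ mainly in their tails, included the highest and the lowest log2 change among the 43 tested members, Tubb6 and the dim Tubb4b. Of 7 members 6 were tested, with a median log2 change of 0.041 and 0 past the threshold. Tubb6, a beta tubulin that is widely expressed outside neurons, read 271, 269 and 402 in non-deprived and 485, 472 and 561 in deprived replicates 1, 2 and 3. Every deprived array was above every non-deprived one, and non-deprived replicate 3 stood between the other non-deprived arrays and the deprived group. The difference was 1.61-fold (means ± SD 314 ± 76.3 and 506 ± 48.0; log2 change 0.68, SE 0.19, 95% interval 0.25 to 1.11), and it did not pass (limma adjusted p = 0.72). Over the fits without 1 array and the other alternatives its log2 change ran from 0.59 to 0.86 and its adjusted p from 0.33 to 1.00. Its probe set is an _f set, a design that can share probes with related transcripts, so its signal may not come from Tubb6 alone.

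Tubb3, the beta tubulin that marks neurons, read 7733, 7498 and 7982 in non-deprived and 6910.3, 6563 and 7004 in deprived arrays. The groups did not overlap, although the means differed by little (7738 ± 242 and 6826 ± 232; log2 change -0.18, SE 0.071, adjusted p = 0.95). A dimmer _f probe set of Tubb3 gave the same estimate with more scatter, a log2 change of -0.18 (SE 0.12), and on it the groups overlapped. The main Tubb3 probe set is also of the _f kind.

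The other beta tubulins overlapped between groups. Tubb2a, abundant in neurons, read 9979, 7989.6 and 7631 in non-deprived and 9259, 8892 and 9335 in deprived arrays, with the top and the bottom of the range in non-deprived arrays (log2 change 0.11, SE 0.10). That is an _f set, and its _r probe set had the opposite sign, -0.20 (SE 0.18). Tubb4a, the isotype enriched in the adult brain and in oligodendrocytes, read 16169, 14081 and 12838 in non-deprived and 15783, 15305 and 16328 in deprived arrays, a log2 change of 0.14 (95% interval -0.051 to 0.34). For Tubb5, expressed in most cells, the log2 change was -0.030 (95% interval -0.21 to 0.15) on an _f probe set. Its dimmer _r probe set gave -0.20 (SE 0.11). Tubb4b was dim and erratic: non-deprived arrays read 233, 76.6 and 251, deprived arrays 121, 104.3 and 99.0, and the interval of its log2 change ran from -1.55 to 0.41. That interval holds large changes in either direction. The deprived mean of Tubb4b, 108, was below the filter's 134.7, so it was tested only through the level of its non-deprived arrays.

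Promoter sequences, taken from RefSeq (build GRCm38.p6), were matched to 37 of the 53 members by gene ID, in 44 windows. The 250 bases before each annotated start were searched on both strands. The motifs were those of the factors that couple neuronal activity to transcription, the cyclic-AMP response element TGACGTCA, the Egr motif (GCGNGGGCG) and the CArG box. Common core promoter motifs were searched beside them: the TATA box, read as TATAAA. Of the upstream boxes, CCAAT was counted as written. The GC box was read as GGGCGG and can overlap the Egr motif. The full cyclic-AMP element was found in 2 of 44 member windows (4.55%, against 1.55% of 32851 windows in all), those of Tubb2a and Kif5c, and the Egr motif in 2 (4.55%, against 4.70%), those of Tubb3 and Kif2a. No member window held a CArG box, which 1.47% of all windows held. The GC box stood in 25 (56.8%, against 32.7%), CCAAT in 16 (36.4%, against 33.8%) and TATAAA in 6 (13.6%, against 12.4%). Member windows were richer in G and C, with a median of 61.6% over genes against 52.0%. The upstream bases of Tubb2a (minus strand, chr13:34078009-34078258), Kif5c (plus strand, chr2:49619036-49619285) and Tubb3 (plus strand, chr8:123411303-123411552) are shown because they carry an activity-linked motif while their genes did not pass; capitals mark the cyclic-AMP element in the first 2 and the Egr motif in Tubb3.
Tubb2a: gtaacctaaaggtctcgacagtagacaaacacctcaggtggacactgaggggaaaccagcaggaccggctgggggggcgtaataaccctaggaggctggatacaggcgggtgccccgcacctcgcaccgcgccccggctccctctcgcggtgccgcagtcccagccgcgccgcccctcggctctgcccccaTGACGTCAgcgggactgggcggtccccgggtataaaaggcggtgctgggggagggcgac
Kif5c: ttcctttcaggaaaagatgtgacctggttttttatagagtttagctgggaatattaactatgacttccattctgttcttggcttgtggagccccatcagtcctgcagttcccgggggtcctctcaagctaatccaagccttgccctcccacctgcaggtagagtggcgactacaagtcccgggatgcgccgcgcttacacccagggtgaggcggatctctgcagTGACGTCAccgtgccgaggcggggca
Tubb3: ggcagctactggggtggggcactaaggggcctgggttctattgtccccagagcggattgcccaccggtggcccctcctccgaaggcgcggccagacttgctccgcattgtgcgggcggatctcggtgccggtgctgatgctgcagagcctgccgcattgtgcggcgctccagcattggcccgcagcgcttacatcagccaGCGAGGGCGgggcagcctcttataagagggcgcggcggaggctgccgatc
The element ended 52 bases before the start in Tubb2a, upstream of a TATAAA match, and 19 bases before it in Kif5c. In Tubb3 the Egr match began 50 bases before the start and overlapped a GC box. A match is a description of these letters and not a bound site.

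Alpha tubulins, the partners of beta tubulin in the dimer, lay close to 0. All 4 members were tested, with a median log2 change of -0.075 and none past the threshold. Tuba1a, the main alpha tubulin of neurons, read 24758, 22706 and 21842 in non-deprived and 22090.1, 21203 and 20446 in deprived arrays. Non-deprived replicate 1 was the highest and deprived replicate 3 the lowest, and the groups overlapped (log2 change -0.12, SE 0.068, adjusted p = 0.97). Its dimmer _f probe set had the opposite sign, 0.032 (SE 0.093). Tuba1c read 30965, 32312 and 30589 in non-deprived and 29263, 30612 and 29276 in deprived arrays and had the smallest SE of all tested members (-0.074, SE 0.057), on an _f probe set. Tuba4a, an alpha tubulin made without the terminal tyrosine, read 3459, 3584 and 2836 in non-deprived and 3034, 3371 and 2938 in deprived arrays (log2 change -0.075, SE 0.11). Its other probe set, with a mean signal of 28.2, was too dim to test and gave -0.71 (SE 0.54). Tuba8 had a log2 change of 0.0040 (95% interval -0.30 to 0.31), with its highest and its lowest reading in non-deprived arrays.

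Of the 4 nucleation genes, all were tested and none passed. The log2 change was positive for 3 and negative for 1, with a median of 0.11, and 52.2% of all tested probe sets had a positive one. Tubg1 and Tubg2 encode gamma tubulin, which seeds new microtubules, and Tubg2 is the brain-enriched form. Tubg2 read 610.1, 702 and 597 in non-deprived and 863, 804 and 692 in deprived arrays. Only deprived replicate 3 lay within the non-deprived range (log2 change 0.30, SE 0.14, adjusted p = 0.95), and the probe set is an _f set. Tubg1 read 989.8, 880.0 and 657 in non-deprived and 1031, 797 and 847 in deprived arrays, which overlap (log2 change 0.092, SE 0.17). Tubgcp3 and Tubgcp4, ring components, had log2 changes of 0.13 (SE 0.22) and -0.17 (SE 0.24). A Tubgcp4 probe set with a mean signal of 11.4, too dim to test, gave 0.56 (SE 0.35). For Tubg1, Tubgcp3 and Tubgcp4 the SE exceeded the change.

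Among the microtubule-associated proteins, 4 of 5 members were tested, 2 with a positive and 2 with a negative change, and none passed. Mapt (tau), the main axonal lattice binder, read 5728, 5065 and 4401 in non-deprived and 4912, 4861 and 4911 in deprived arrays. The 3 deprived readings lay close together and inside the non-deprived range (log2 change -0.041, 95% interval -0.26 to 0.18). Its 2 other tested probe sets gave -0.11 (SE 0.093) and 0.14 (SE 0.12), so its probe sets gave both signs. Map2, the dendritic counterpart of tau, read 467, 545 and 419 in non-deprived and 430.3, 773 and 429 in deprived arrays, and deprived replicate 2 stood above all other arrays. Its log2 change was 0.14 (SE 0.23) with that array and -0.14 without it.

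Map6, the protein that makes microtubules stable to cold, read 1058, 1129 and 949.9 in non-deprived and 1133, 884 and 672 in deprived arrays. The deprived group spread most, with deprived replicate 3 the lowest array (log2 change -0.25, SE 0.18, adjusted p = 0.97). Map4 is found mostly outside neurons. Its log2 change was 0.036 (SE 0.15) on the brighter and 0.26 (SE 0.29) on the dimmer probe set. Map1b was below the filter at 85.9, 81.6 and 106 in non-deprived and 56.5, 100.4 and 38.2 in deprived arrays, too dim to be told from background. Map1a had no probe set with that single symbol and is not analysed here.

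Stathmins gave the largest share of narrow intervals of any role. All 4 members were tested and none passed. On the brightest probe sets their log2 changes ran from -0.082 to 0.022, and for 3 of 4 the 95% interval lay within 1.2-fold. Stmn1, the founding stathmin, read 14787, 14317 and 13748 in non-deprived and 14178, 14830.5 and 14499.8 in deprived arrays, which interleave (log2 change 0.022, 95% interval -0.12 to 0.16). Stmn2 (SCG10), a growth-cone protein of neurons, read 4234, 4168 and 4515 in non-deprived and 4202, 4285 and 4079.8 in deprived arrays (95% interval -0.21 to 0.13). A second tested probe set of Stmn2 gave 0.029 (SE 0.15). Stmn3 had a log2 change of -0.033 (95% interval -0.24 to 0.17). A dimmer _f probe set of Stmn3 was far less precise, at -0.090 (95% interval -0.70 to 0.52). Stmn4, also neuronal, read 4076, 3499.5 and 3571 in non-deprived and 3532, 3557 and 3417 in deprived arrays, with non-deprived replicate 1 above the rest (log2 change -0.082, 95% interval -0.28 to 0.12).

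The 3 neurofilament subunits all had lower means in deprived cortex, by amounts that did not pass, and for Nefh the means were nearly the same (745 and 737). Of all tested probe sets, 52.2% had a positive log2 change. Nefl, the light subunit that forms the core of the filament, read 1018, 1185 and 993 in non-deprived and 984, 909.9 and 895 in deprived arrays. The lowest non-deprived reading was barely above the highest deprived one, so the groups only just separated (log2 change -0.19, SE 0.12, adjusted p = 0.97). Nefm, the medium subunit, read 479, 535 and 537 in non-deprived and 405, 512 and 444 in deprived arrays. Deprived replicate 2 lay among the non-deprived arrays (log2 change -0.19, SE 0.15). Nefh, the heavy subunit of large myelinated axons, read 817, 598 and 819 in non-deprived and 672, 787 and 751 in deprived arrays, with non-deprived replicate 2 the lowest of the 6 (log2 change -0.0039, 95% interval -0.35 to 0.34). Ina, the internexin that joins these subunits in the adult brain, had a log2 change of -0.060 (SE 0.076).

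**Figure D3:**
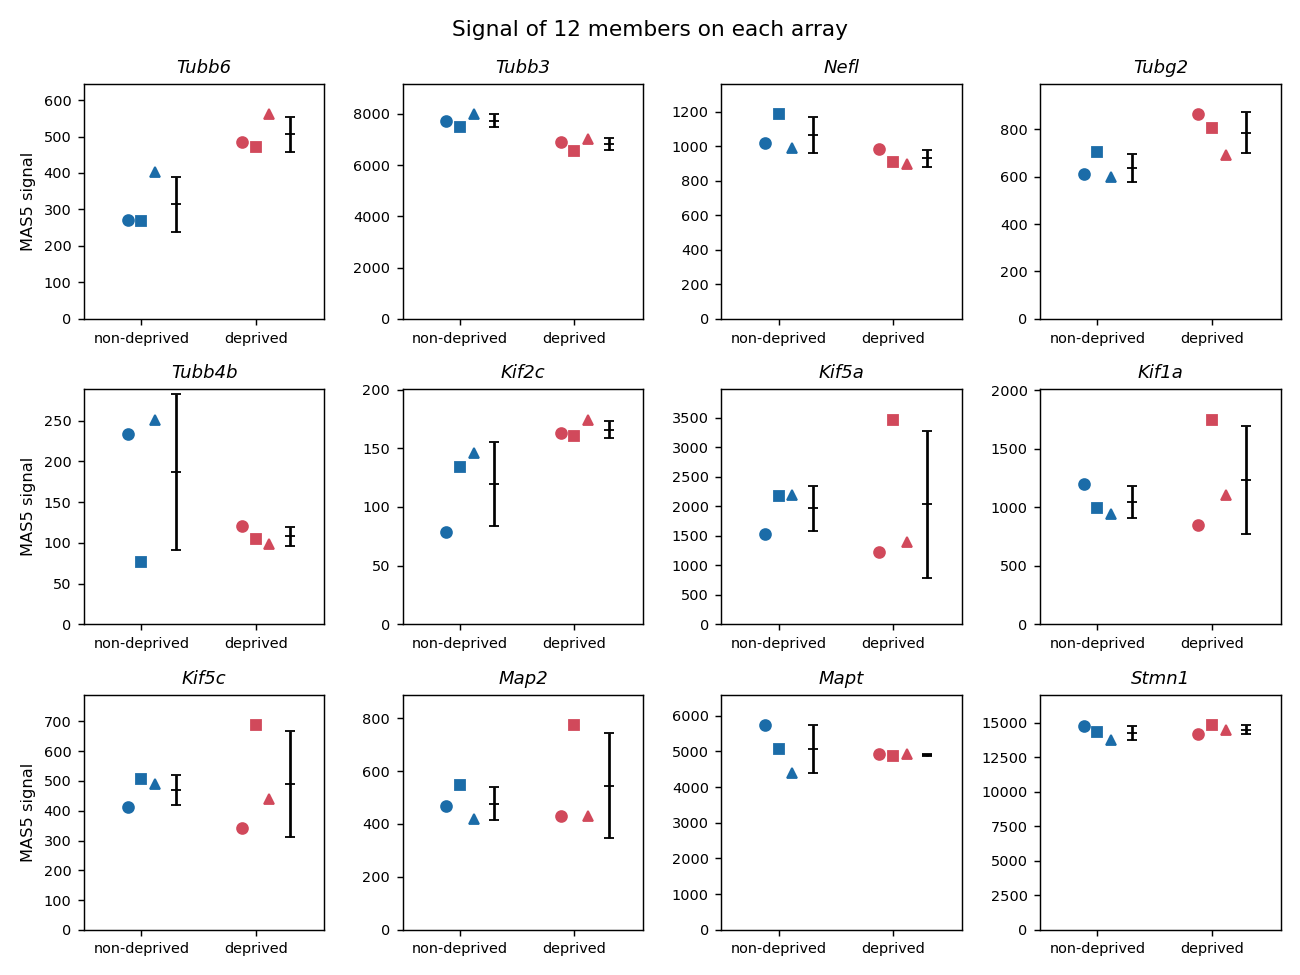
MAS5 signal (y axis, from 0) of 12 members on each array, by group (x axis); circles, squares and triangles are replicates 1, 2 and 3, and the bar beside them is the mean ± SD of 3 arrays. Tubb6, Tubb3, Kif2c and, only just, Nefl separate by group, and in Kif5a, Kif1a, Kif5c and Map2 the square of deprived replicate 2 stands above the other 5 arrays.

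Several kinesins read highest on a single deprived array, and none differed between groups past the threshold. Of 18 members, 12 were tested, with 9 positive and 3 negative log2 changes and a median of 0.10. The median depended on 1 array each way: it was -0.029 without deprived replicate 2 and 0.0050 without non-deprived replicate 1, and up to 0.18 in the fits without another array. Kif5a, the neuron-specific heavy chain of kinesin-1 that carries cargo such as neurofilaments along axons, read 1527, 2174 and 2196 in non-deprived and 1226, 3466 and 1401 in deprived arrays. Deprived replicate 2 was 1.58 times the next highest array, and the other 2 deprived arrays were the lowest of the 6. The log2 change was -0.10 (SE 0.33) over all arrays and -0.56 (SE 0.17, limma adjusted p = 0.83) without deprived replicate 2. Its dimmer _i probe set was also highest there, at 261 against 76.5 to 246 in the other arrays. The brighter one is an _s set, which can also share probes with related transcripts.

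The same array led several related motors. Kif1a, a kinesin-3 that moves synaptic vesicle precursors, read 1200.1, 998 and 939 in non-deprived and 850.4, 1749 and 1106 in deprived arrays, with deprived replicate 2 at 1.46 times the next highest. Its log2 change was 0.18 (SE 0.23) and -0.10 without that array. Kif5c, another neuronal kinesin-1 chain whose upstream bases are given above, read 411, 506 and 488 in non-deprived and 344, 687 and 439 in deprived arrays, with deprived replicate 2 at 1.36 times the next. Its log2 change was 0.012 (SE 0.23) and -0.25 without that array. Kif1b, carrier of mitochondria and vesicle precursors, read 459, 541 and 592 in non-deprived and 411, 685.7 and 344 in deprived arrays; deprived replicate 2 was again the highest and the other deprived arrays the 2 lowest (log2 change -0.19, SE 0.24, and -0.47 without deprived replicate 2). A Kif1b probe set too dim to test gave 0.24 (SE 0.40).

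In all, 9 of 12 tested kinesins (75.0%) had their highest reading in deprived replicate 2: Kif1a, Kif1b, Kif2a, Kif3a, Kif3b, Kif3c, Kif5a, Kif5c and Kif22. Over all tested probe sets the share was 17.4%, and outside the kinesins 2 of the other 31 tested members, Map2 and Stmn1, had it. For Kif2a and Kif3c the lead over the next array was slight. Of members whose highest array exceeded the next by more than 1.3-fold, there were 4 (Kif5a, Kif1a, Map2 and Kif5c), or 9.30% of those tested, and all led in deprived replicate 2, where 1.73% of all tested probe sets did so. These counts were chosen after the values were seen and carry no test. On the same array the 3′ to 5′ signal ratio of β-actin, which rises as RNA is degraded, was 1.26, the lowest of the 6 (1.28 to 1.63 in the others), and that of Gapdh was 0.972 (0.940 to 1.10). The 3′ signal of 18S RNA was 981 there; it stood apart on another array, non-deprived replicate 3, at 2689 against 661 to 981 elsewhere. Non-deprived replicate 3 was also the lowest array for 14 of 43 members (32.6%), against 19.9% of all tested probe sets. The part of RNA quality in these readings was not tested.

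**Figure D4:**
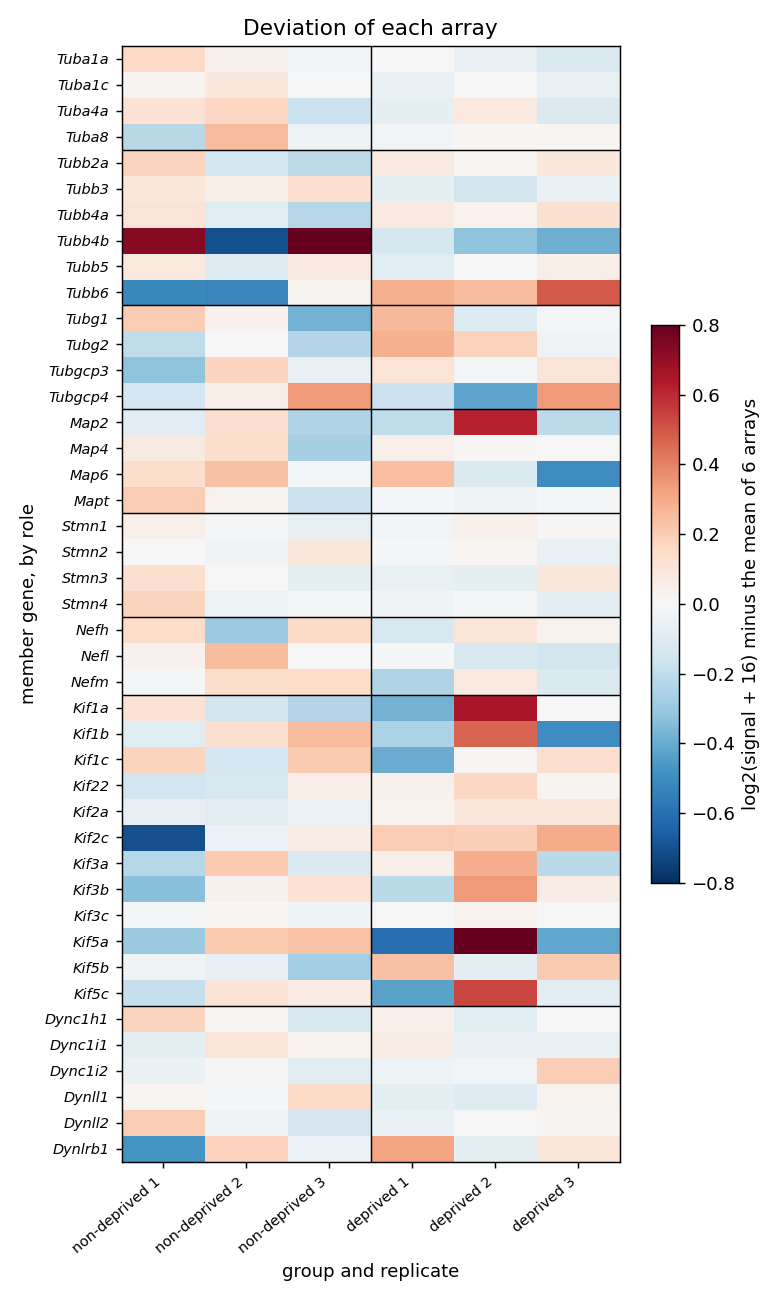
Log2(signal + 16) of each array (columns) minus the mean of the 6 arrays for that gene, for the 43 tested members (rows, by role); red is above and blue below that mean, with colours saturating at 0.8 either way. The column of deprived replicate 2 is red for most kinesins and pale in the dynein and stathmin blocks.

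The remaining transport kinesins overlapped between groups, apart from Kif2a. Kif5b, the kinesin-1 chain made in most cells, read 748, 726 and 627 in non-deprived and 899, 719.9 and 884 in deprived arrays. Deprived replicates 1 and 3 were the highest of the 6, the opposite of Kif5a (log2 change 0.24, SE 0.14, adjusted p = 0.97). Kif3a and Kif3b, which pair as kinesin-2, had log2 changes of 0.085 (SE 0.21) and 0.12 (SE 0.22). A dim Kif3a probe set with a mean signal of 89.5, too dim to test, had the opposite sign (-0.65, SE 0.34). Kif3c, a neuronal relative of Kif3a and Kif3b, read 789.9, 807 and 779 in non-deprived and 799, 814 and 798 in deprived arrays. These were the tightest readings of the kinesins (log2 change 0.021, 95% interval -0.23 to 0.27). Kif1c had a log2 change of -0.16 (SE 0.27).

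Kif2a, a kinesin that takes microtubules apart and limits axon branching, read 567, 557 and 575 in non-deprived and 608, 633 and 633 in deprived arrays. Its groups did not overlap, and the difference was small (log2 change 0.14, SE 0.12, adjusted p = 0.97). Of the 6 kinesins that act mainly in cell division (Kif2c, Kif4, Kif11, Kif20a, Kif22 and Kif23), only Kif2c and Kif22 were bright enough to test. Kif2c, the mitotic depolymerase, read 79.0, 134 and 146 in non-deprived and 163, 161 and 174 in deprived arrays. All 3 deprived readings were above the non-deprived ones, and the difference did not pass (log2 change 0.46, SE 0.33, limma adjusted p = 0.97). Its mean signal of 143 lay just above the filter's 134.7, and such a signal may be background. Its non-deprived mean of 119 was below that filter, so it was tested only through the level of its deprived arrays. Kif22 had a log2 change of 0.15 (SE 0.14) on an _r probe set.

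Most dynein chains lay near 0. Of 8 members, 6 were tested and none passed, with a median log2 change of -0.031 and an interval within 1.2-fold for 3 of them. Dync1h1, the heavy chain that is the motor of retrograde transport, read 4702, 4178 and 3802 in non-deprived and 4268, 3882 and 4165 in deprived arrays, with the extremes in the non-deprived group (95% interval of the log2 change -0.25 to 0.18). Dync1i1, the neuronal intermediate chain, read 4083, 4631 and 4384 in non-deprived and 4487, 4142 and 4132 in deprived arrays on an _r probe set (95% interval -0.22 to 0.15). Dync1i2, its ubiquitous relative, had a log2 change of 0.091 (SE 0.15).

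Light chains link dynein to cargo and adaptors. Dynll1, a hub protein also found outside dynein, read 10454, 10249 and 11492 in non-deprived and 9818, 9643 and 10576 in deprived arrays, which overlap (log2 change -0.10, SE 0.075), on an _f probe set. Dynll2 had a log2 change of -0.025 (95% interval -0.23 to 0.18). Dynlrb1 read 1165, 1847 and 1572 in non-deprived and 2027, 1550.0 and 1740.5 in deprived arrays on an _i probe set, with non-deprived replicate 1 the lowest (log2 change 0.23, SE 0.17). Its _r probe set had the opposite sign, -0.21 (SE 0.14), and its groups did not overlap, so the 2 probe sets of Dynlrb1 differ in direction.

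The 10 members below the filter had mean signals of 26.4 to 97.1 and were not tested: Tubb2a-ps2, Map1b, Kif4, Kif9, Kif11, Kif16b, Kif20a, Kif23, Dynlt1b and Dynlt3. Signals this dim cannot be told from background. Their log2 changes, from a fit with no filter, ran from -0.83 to 0.33, with SEs of 0.28 to 0.51. Among them the groups' arrays did not overlap for Kif23 (138, 117 and 114 in non-deprived and 94.3, 36.9 and 65.3 in deprived arrays) and Kif11 (32.1, 34.4 and 34.1 in non-deprived and 11.8, 23.7 and 22.4 in deprived arrays), which is 2 of 10, beside 9.94% of all probe sets below the filter. Of the 20 further probe sets of members, 12 were tested, and for 6 of these 12 the sign was opposite to that of the gene's brightest probe set or the estimates differed by over 0.5.

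No partner gene of the same machinery passed. Of 128 genes listed as partners, 83 were tested and none passed in either direction, 4 had an unadjusted p under 0.05 (4.82%, against 5.09% of all tested probe sets), and their median log2 change was 0.0041. Among kinesin partners (9 tested, median 0.021), Kifap3, the adaptor of kinesin-2, read 2804, 2536 and 2770.2 in non-deprived and 3389.6, 3446 and 2844 in deprived arrays. The groups did not overlap, and the difference did not pass (log2 change 0.25, SE 0.10, limma adjusted p = 0.95). In the same list Kifc3, a C-terminal kinesin, was lower on average in deprived cortex, without passing, at 211, 279 and 219 in non-deprived and 202, 74.3 and 120.0 in deprived arrays. Its log2 change was -0.85 (SE 0.35, limma adjusted p = 0.95). The deprived mean of Kifc3, 132, was below the filter's 134.7, so it was tested only through the level of its non-deprived arrays. Kifap3 and Kifc3 were the 2 of 9 whose groups did not overlap, beside 10.1% of all tested probe sets. Among dynactin and dynein regulators (9 tested, median 0.019) Dctn6 had a log2 change of 0.33 (SE 0.14), and among the other intermediate filaments (7 tested, median -0.0031) Vim had 0.59 (SE 0.32). Tubulin folding and modification genes had a median of -0.045 over 14 (Cct3, a chaperonin subunit, -0.21, SE 0.13), and plus-end, severing and other lattice proteins 0.013 over 17 (Map1lc3a -0.13, SE 0.082). Growth-cone genes had -0.037 over 11 (Marcks 0.24, SE 0.11) and the kinase list 0.032 over 16 (Ppp2r2b, a phosphatase subunit that acts on tau, -0.22, SE 0.084).

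Markers of the cell types in the tissue were measured beside these genes, and none passed. Neuronal markers had a median log2 change of 0.056 over 6 tested, and their summed signal ran from 47115 to 48122 in non-deprived and from 45791 to 50580 in deprived arrays. Oligodendrocyte markers, the cells that also express Tubb4a, had 0.018 over 6 tested of 8 measured, with summed signals of 11512 to 12509 and 11397 to 12988. Astrocyte markers had 0.060 over 7, microglial markers 0.048 over 6, endothelial markers -0.055 over 4 and markers of meninges and choroid plexus 0.033 over 5. For GABAergic neurons the median was -0.14 over 5 markers, with summed signals of 14691 to 15473 in non-deprived and 11932 to 13581 in deprived arrays, which do not overlap. Of the 5, only Sst had groups that did not overlap (log2 change -0.39, SE 0.083, limma adjusted p = 0.26). For Pvalb the log2 change was -0.25 (SE 0.11), and Gad1, Gad2 and Slc32a1 lay between -0.14 and -0.091. A sum follows its brightest probe sets, which here were those of Pvalb and Sst. In the other marker lists Ctss and Cldn5 were higher and Cd68 lower without overlap, and 10.1% of all tested probe sets had no overlap. The part of these markers in the tubulin and neurofilament values was not tested. Markers of dividing cells had -0.18 over 3 tested. Of 8 measured, 5 were below the filter (Top2a, Cdk1, Aurka, Aurkb and Bub1), beside the 4 dim mitotic kinesins.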

How the data were processed

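The authors deposited a table of 12488 probe sets on 6 arrays, in linear units of intensity (the MAS5 signal, as the submitters' processing notes call it); its version and settings are not given in the sources used here. All deposited columns had a 2% trimmed mean of 500.3, so scaling to it left them as they were; such scaling hides any change in total mRNA. Without the 66 control probe sets, the brightest 60% by mean over the 6 arrays were tested with limma 3.58.1 in R 4.3.3 (lmFit, eBayes with an intensity trend) on log2(signal + 16), two-sided, group as the only term, with Benjamini-Hochberg adjustment over 7453 probe sets. The code of the fit was also run on simulated data, with independent normal noise and SDs shuffled among probe sets. No result given here rests on that run. Gene symbols came from the platform annotation; all 53 members matched NCBI RefSeq (GRCm38.p6) by Entrez ID. Detection calls were not used, so dim signals cannot be told from background.

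Members and gene lists were chosen with earlier results of these data known. Genes given array by array were any past the threshold, the 3 members per role with the smallest p (all where 4 or fewer were tested) and a core set of 35 genes, of which 29 were measured; of partner lists, the gene with the smallest p. Other genes named, such as Ina, Kifc3, Sst and Pvalb, were chosen after their values were seen. Alternatives were quantile normalization, pseudocounts of 1 and 64, values left unscaled, no filter, only the brightest 40%, no intensity trend, the replicate number as a block, each array left out, and other choices of probe set.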

Additional observations from a re-analysis of the deposited data

How the results depend on the processing

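In every alternative run, 0 members and 0 of the partner genes passed, also with each of 55 tested member probe sets counted and without _f, _r and _i sets. The members' median log2 change, -0.0039 in the main setting, ran from -0.031 to 0.016 in the fits without 1 array and was 0.0015 after quantile normalization, -0.030 with no filter, -0.025 in the top 40% and 0.000076 without _f, _r and _i sets. Over all probe sets, 13 passed, and 7 to 10 without 1 array; the count fell by over 1.5 times when non-deprived replicate 2 (7), non-deprived replicate 3 (8) or deprived replicate 3 (8) was left out. With the replicate number as a block, 10 probe sets and 0 members passed. Same-numbered arrays did not deviate together (correlations of their deviations from group means 0.0030, 0.049 and -0.020). Only non-deprived replicate 2 correlated best with its own number, at 0.049. The highest correlation was 0.10, between non-deprived replicate 1 and deprived replicate 3. Whether same-numbered arrays come from the same mice is not stated, and weak correlations among so few arrays cannot decide it. Of the 43 tested members, 23 kept their sign in every alternative, Tubb6, Tubb3, Nefl and Nefm among them, and the smallest adjusted p anywhere was 0.33, for Tubb6 without non-deprived replicate 3. The other 20, none of them past the threshold, changed sign in at least 1; the cause was not tested. After quantile normalization Tuba1c was at 0.035, Tuba8 at -0.014, Tubb5 at 0.028, Kif5c at -0.0083 and Dynll2 at 0.015. With probe sets averaged per gene Tubb2a was at -0.046, Kif1b at 0.025 and Kif3a at -0.28. Without 1 array the log2 changes ran from -0.10 to 0.13 for Tuba8, from -0.088 to 0.013 for Tubb5, from -0.073 to 0.22 for Tubg1, from -0.14 to 0.27 for Map2, from -0.087 to 0.11 for Map4, from -0.14 to 0.052 for Mapt, from -0.0050 to 0.048 for Stmn1, from -0.087 to 0.022 for Stmn3, from -0.15 to 0.070 for Nefh, from -0.10 to 0.41 for Kif1a, from -0.47 to 0.0098 for Kif1b, from -0.041 to 0.21 for Kif3a, from -0.018 to 0.26 for Kif3b, from -0.56 to 0.18 for Kif5a, from -0.25 to 0.23 for Kif5c, from -0.11 to 0.041 for Dync1h1, from -0.084 to 0.0065 for Dync1i1 and from -0.10 to 0.070 for Dynll2. Dim signals limit the precision: the SE reached 0.44 for Tubb4b and was 0.057 for Tuba1c.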

Other observations

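Genes other than tubulins, filaments and motors also read highest in deprived replicate 2. Of 7453 tested probe sets, 129 were highest there by more than 1.3-fold, against 43 to 125 in each of the other 5 arrays. Camk2a, the calcium/calmodulin-dependent kinase of excitatory synapses, read 2291, 2765 and 2185 in non-deprived and 2143, 4516 and 1923 in deprived arrays on its brightest probe set, and a second probe set was also highest there (1984 against 918 to 1479). Its log2 change was 0.14 (SE 0.27, limma adjusted p = 0.98). Dkk3, a secreted glycoprotein, read 3832 there and 2542 to 2754 elsewhere, and Rogdi 2942 against 1909 to 2088. Not every neuronal gene did so: Stmn2 read 4202, 4285 and 4079.8 and Mapt 4912, 4861 and 4911 in the deprived arrays. These genes are named after their values were seen.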
